A study of Drosophila melanogaster with 4 samples.

Results

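Isolated islands of the acetylated lysine 9 of histone H3 (H3K9ac) are short enriched stretches with no other enriched stretch close by on either side. The authors deposited 1 list of enriched regions, called clusters here, for each of the 2 immunoprecipitated (ChIP) libraries. A stretch is any run of bases that lies in a cluster of both lists. An island is a stretch under 5000 bp on 1 of the 5 large chromosome arms (2L, 2R, 3L, 3R and X) whose gaps to the previous and the next stretch are both at least 20000 bp, so the members were chosen by measured length and gap. There were 308 islands among the 5563 stretches under 5000 bp on these arms (5.54%), among 6134 arm stretches of any length and among 6230 stretches in all. They held 683 kb in all, 3.91% of the bases in arm stretches. The other 5255 short stretches are the comparison.

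The material came from third-instar larvae of Drosophila melanogaster, strain Oregon-R, genotype wild type. There are 2 ChIP libraries of H3K9ac and 2 input libraries (chromatin without enrichment), all of this strain and stage, with no treatment or mutant. The processed lists of the ChIP libraries and 1 list of the replicate set were used here, and input values were not used here. Whole larvae hold many tissues, so an island carried in few cells and one that is weak in all cells cannot be told apart. No label ties the replicates to separate larval collections, and their spread may be technical.

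H3K9ac is placed by lysine acetyltransferases, Gcn5 among them in flies, and removed by histone deacetylases. It marks open, transcribed chromatin and is known above all from the starts of active genes and from active enhancers. The same lysine carries methyl groups in the silent heterochromatin around the centromeres, and a single lysine cannot be acetylated and methylated at once. Fly chromosome arms alternate between gene-dense regions and long regions poor in active genes.

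Each cluster has a deposited value, called the score, which behaves as a log2 ratio, so that a score of 1 would be a ratio of 2. The authors' denominator is not given in the sources used here. Positions below refer to FlyBase release 5. The gaps and lengths that chose the islands come from the same calls as the scores, so lengths, scores and base overlap are descriptions with no test. The number of reads behind the lists is unknown.

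Isolated islands were present on every arm. There were 70 on 2L, 54 on 2R, 66 on 3L, 70 on 3R and 48 on X. They made up 7.32% of the short stretches on 2L, 4.47% on 2R, 5.81% on 3L, 5.04% on 3R and 5.49% on X. Per Mb between the first and the last cluster of the arm, the count ran from 2.14 on X to 3.05 on 2L. Thus 2L was the arm with the most islands per Mb and X the arm with the fewest.

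Islands were shorter and had lower scores than the other short stretches, with wide overlap. Island lengths ran from 16 to 4904 bp with a median of 2056 bp, against a median of 2297 bp for the other short stretches. In replicate 1, island scores ran from 0.25 to 2.20 with a median of 0.64, against a median of 0.80 for the others. In replicate 2, island scores ran from 0.22 to 1.88 with a median of 0.63, against a median of 0.74 for the others. Both replicates therefore placed the islands lower, with differences of -0.16 and -0.11 between the log2 medians. The median of the mean score of both replicates was 0.63 in islands (a ratio of 1.55) and 0.77 in the others (a ratio of 1.71). From the 25th to the 75th percentile this mean score covered 0.51 to 0.97 in islands and 0.57 to 1.15 in the others, so the bulk of both groups shared the same range. With the rule applied to the clusters of 1 list alone, the difference was -0.12 in replicate 1 and -0.0231 in replicate 2. With gaps measured to clusters of the replicate set, which left 105 islands, it was 0.0024, so under that definition islands did not score lower.

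Fewer islands than other short stretches reached high scores, and more of them stayed low. A score above 1 in both replicates was reached by 59 islands (19.2%), against 1557 of the other short stretches (29.6%). A score below 0.5 in both was held by 42 islands (13.6%), against 355 of the others (6.76%). The authors' own value for the replicate set gave the same order, with a median of 0.56 over the 307 islands that touch a cluster of that list and 0.73 over the others. That list belongs to the same ChIP libraries and is no separate sample. Its clusters at islands were also shorter, with a median of 2778 bp against 3698.5 bp at the others. Medians of length and of both replicates' scores were lower in islands on all 5 arms, but the size varied. The mean score was 0.57 in islands and 0.75 in the others on both 3L and 3R, and 0.65 in islands and 0.73 in the others on 2L. On 2L the medians in replicate 2 were 0.66 in islands and 0.69 in the others, the smallest score difference of any arm in either replicate. X had the highest levels in both groups, 0.77 in islands and 0.94 in the others.

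Other stretches include a kind that islands cannot be. Of the other short stretches, 1187 (22.6%) lay in a cluster that also held another stretch, whereas 0 islands did. The 4068 others that shared their clusters with no second stretch had medians of 0.82 for the mean score and 2333 bp for the length. Against these, the islands' median of 0.63 gave a difference of -0.19.

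Over all short stretches, the median scores went down with distance to the nearest neighbour only beyond a few kb. In 6 classes of the smaller gap, with limits at 1000, 2000, 5000, 10000 and 20000 bp, the median score in replicate 1 was 0.81, 0.84, 0.83, 0.78, 0.69 and 0.64. In replicate 2 it was 0.74, 0.78, 0.77, 0.71, 0.68 and 0.63 over the same classes. The islands, which are the last class, were lowest in both replicates, and the class just before them stood closest to them. When the 4068 others with unshared clusters were taken with the islands, the median mean score went down at every step, with 0.95, 0.85, 0.80, 0.73, 0.68 and 0.63. Over single regions the relation was weak in every group. Among the islands, smaller gap and mean score had a Pearson r of -0.027 and a Spearman rho of -0.045 (n = 308 regions from the same 2 libraries, a description). The values were -0.047 and -0.032 over the other short stretches with both gaps (n = 5245). They were -0.110 and -0.120 over those with unshared clusters (n = 4058).

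**Figure D1:**
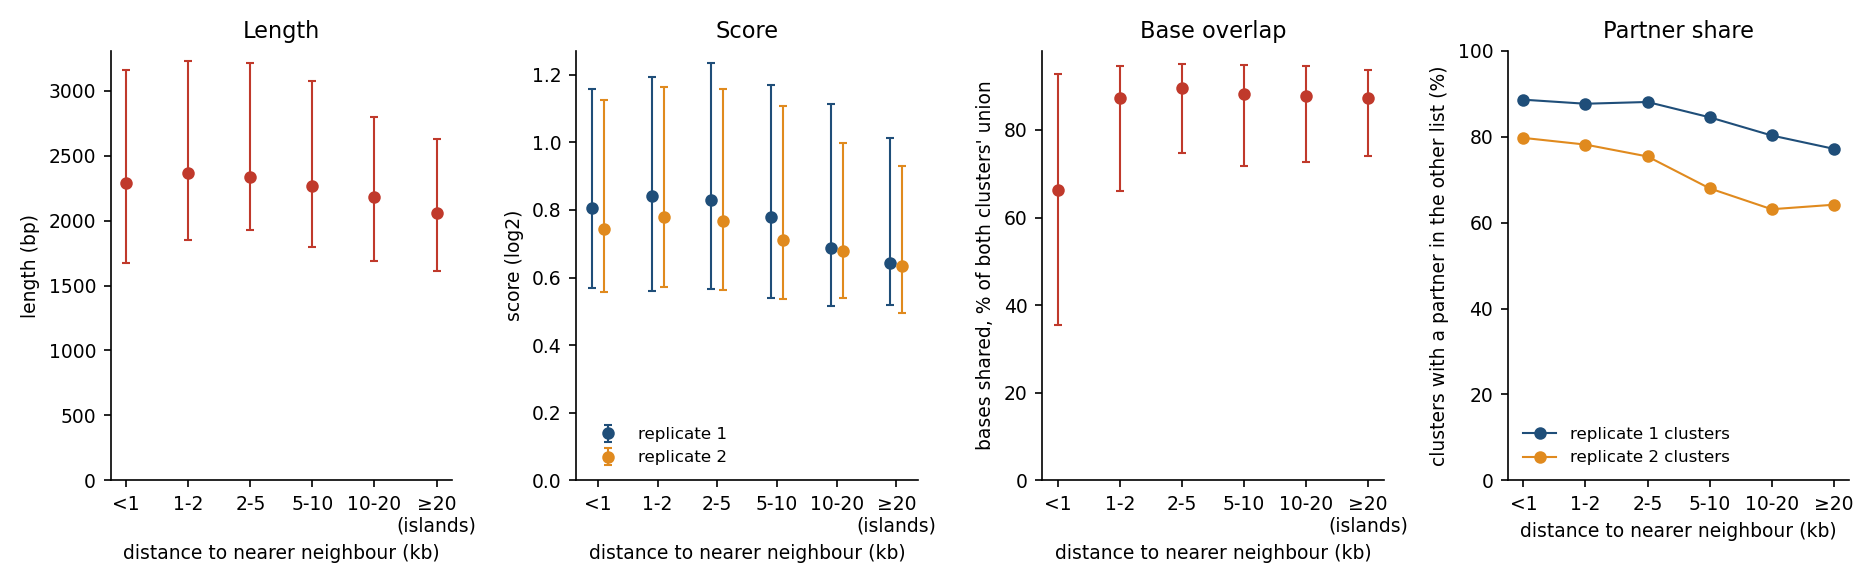
From left to right, length of short stretches (bp), score in each replicate (log2), bases shared by both clusters (% of their union) and share of short clusters of each list with a partner in the other list (%), in 6 classes of the distance to the nearer neighbour (kb). Points of the first 3 panels are medians with bars from the 25th to the 75th percentile, and the islands, as the last class, have the lowest medians of length (2056 bp) and of both scores (0.64 and 0.63).

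Between stretches of like length, the score difference was smaller. Scores were higher in longer stretches, with a Spearman rho of 0.806 between length and mean score over the 308 islands. Islands fell more often into the class from 1000 to under 2000 bp, with 129 islands (41.9%) against 1425 others (27.1%). They fell less often into the class from 3000 to under 5000 bp, with 53 islands (17.2%) against 1523 others (29.0%). Within classes the medians of the mean score of islands and of all others were close. The mean score was 0.53 in islands (n = 8) and 0.56 in others under 1000 bp, 0.50 in islands and 0.52 in others from 1000 bp, 0.85 in islands and 0.87 in others from 2000 bp, and 1.16 in islands and 1.17 in others from 3000 bp. The replicates parted in the longest class, where replicate 1 gave 1.23 in islands and 1.20 in others, and replicate 2 gave 1.06 in islands and 1.14 in others. This difference of -0.08 in replicate 2 was of the order of that over all lengths, -0.11. Weighted by the islands in each class, the difference of the mean score was -0.02, against -0.14 with all lengths together. This weighted difference was -0.019 in replicate 1 and -0.045 in replicate 2. Against the 4068 others with unshared clusters it was -0.0345 for the mean score, -0.029 in replicate 1 and -0.058 in replicate 2. From the shortest class to the longest, these others had median mean scores of 0.52, 0.51, 0.90 and 1.22. Only the first of these was below that of the islands.

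**Figure D2:**
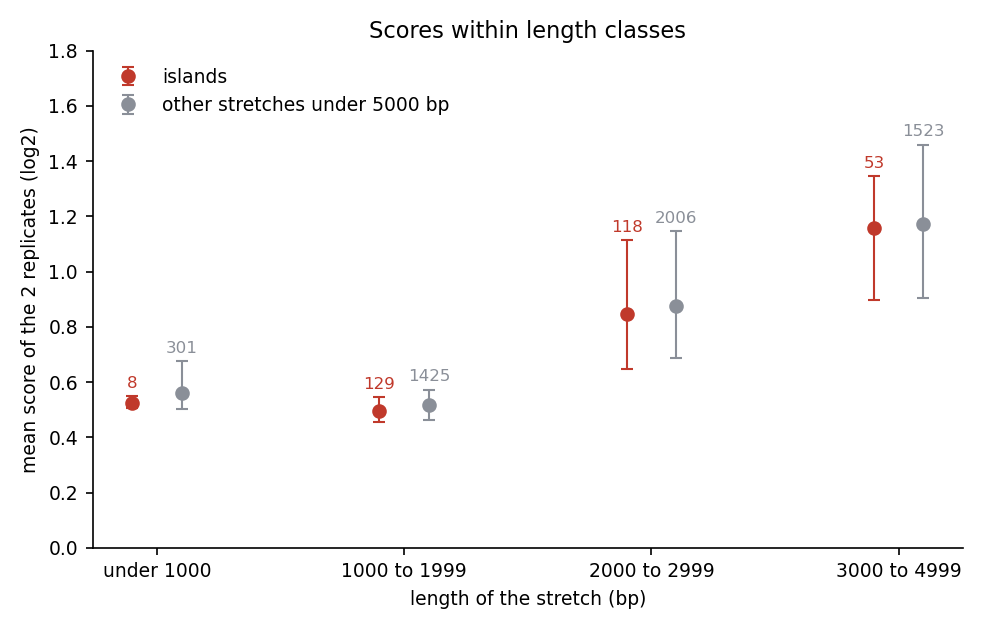
Median of the mean score of both replicates (log2) in 4 classes of stretch length (bp), for islands and for the other short stretches, with bars from the 25th to the 75th percentile and the number of stretches above each. The medians lie close together within every class, such as 1.16 in islands and 1.17 in others from 3000 bp upward, and the bars overlap.

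The strongest islands scored about 2 in replicate 1, and some of them had no other listed cluster within 20 kb. The island with the highest mean score was on 3R from 10449947 to 10453145, with scores of 2.20 in replicate 1 and 1.83 in replicate 2 over 3199 bp. Its gaps were 47467 bp and 20746 bp, and no cluster of any of the 3 lists lay in the 20 kb on either side. A second island on 3R, from 25143480 to 25146187, had scores of 2.13 and 1.88 in replicates 1 and 2 and was also free of any listed cluster within 20 kb. Its gap to the next stretch was 136440 bp, so a score of this size stood at the edge of a long region with no stretch covered in both lists.

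The other islands among the 5 with the highest mean score were on 2R from 7338538 to 7342291 (2.01 and 1.79 in replicates 1 and 2), on 3L from 11244545 to 11248558 (1.94 and 1.78) and on 2R from 977226 to 979940 (1.93 and 1.56). On X the highest island lay from 13889569 to 13892656 with 1.88 in replicate 1 and 1.51 in replicate 2, and its gaps were 148986 and 185776 bp. On 2L it lay from 15112646 to 15115113, with 1.56 in replicate 1 and 1.64 in replicate 2. Of these 7 islands, the one on 2L was the only one with a higher score in replicate 2. The 59 islands above 1 in both replicates had a median length of 2996 bp.

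The 5 weakest islands were all shorter than the median island. The lowest mean score belonged to an island on 3R from 8914176 to 8915677, with scores of 0.25 and 0.30 in replicates 1 and 2. Next came 1 on 3R from 19429901 to 19431401 (0.28 and 0.26), which had no cluster of any list within 20 kb. The other islands among the lowest 5 lay on 2L from 22647827 to 22649334 (0.38 and 0.22), on 3L from 12329289 to 12330985 (0.37 and 0.23) and on 3L from 7087536 to 7089185 (0.38 and 0.24). All 5 were between 1501 and 1697 bp long. The 42 islands below 0.5 in both replicates had a median length of 1500.5 bp. The shortest whole cluster of either replicate list had 1301 bp, but a stretch can be shorter than the clusters it lies in.

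Length extremes did not coincide with score extremes. The longest islands were on 3R from 20542487 to 20547390 (4904 bp, scores 0.88 and 0.97), on 2R from 14857224 to 14862008 (4785 bp, 1.41 and 1.20) and on 2L from 20348463 to 20353129 (4667 bp, 1.21 and 1.26). None of them was among the 5 islands with the highest scores. The shortest island had 16 bp, on 2L from 13100521 to 13100536, where a replicate 1 cluster of 1301 bp and a replicate 2 cluster of 1501 bp met at their edges with a score of 0.43 each. It was the only island that touched no cluster of the replicate set. The next shortest were on X from 16615294 to 16615418 (125 bp) and on 2L from 11404970 to 11405345 (376 bp).

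The 2 replicates drew the islands with similar borders. The bases shared by the 2 clusters, as a share of all bases in either, had a median of 87.4% in islands and 85.7% in the other short stretches. Set against the 4068 others with unshared clusters, however, the median of 90.4% put the islands lower. Against all others, islands were also lower on 3R, with 83.65% in islands and 86.0% in others. The replicates differed in the share of their own cluster that the stretch covered. Its median was 93.1% in islands and 94.8% in all others in replicate 1, and 98.6% in islands and 97.0% in all others in replicate 2. Cluster starts were 114 bp apart in islands and 139 bp in all others, and ends were 126 bp apart in islands and 136 bp in all others, as medians. For the others with unshared clusters these medians were 104 bp for starts and 102 bp for ends, below those of islands. Under 50% of the bases were shared in 22 islands (7.14%), against 1099 of all others (20.9%) and 240 of the others with unshared clusters (5.90%). Which of the comparison groups was used therefore decided whether islands stood above or below it. When only the top 50% of scores in either list was kept, the median shared share of islands minus that of others was -1.22 percentage points, also the opposite of the order over all clusters.

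Scores of the same island in the 2 replicates were close to each other. Their absolute difference had a median of 0.10 in islands and 0.11 in all others. Pearson's r between replicates was 0.879 and Spearman's rho 0.816 over 308 islands, against 0.877 and 0.828 over 5255 others and 0.924 and 0.9004 over the 4068 others with unshared clusters, as descriptions over regions that share libraries and depth. Replicate 1 was higher in 186 islands (60.4%), against 57.4% of all others. The 3 islands with the largest excess in replicate 2 lay on 3L from 6782461 to 6786794 (1.26 in replicate 1 and 1.70 in replicate 2), on 2L from 6423471 to 6426061 (1.41 and 1.77) and on 2L from 8825538 to 8829409 (0.91 and 1.25).

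Isolation was also judged in 1 list alone, and the other list, which then took no part in the choice, was searched for an overlapping cluster. An overlap of at least 1 bp counted as a partner. In replicate 1, 213 of 276 isolated short clusters had a partner in replicate 2 (77.2%, exact 95% binomial interval 71.8 to 82.0%), against 4643 of 5333 other short clusters (87.1%, 86.1 to 88.0%). In replicate 2, 179 of 279 isolated short clusters had a partner in replicate 1 (64.2%, 58.2 to 69.8%), against 4923 of 6497 others (75.8%, 74.7 to 76.8%). Isolated clusters were thus met less often by the other library in both directions, with differences of -9.89 and -11.6 percentage points, and in neither direction did the intervals meet. By class of the smaller gap, from under 1000 bp to at least 20000 bp, the partner share was 88.6, 87.7, 88.1, 84.5, 80.3 and 77.2% in replicate 1 and 79.7, 78.2, 75.4, 68.0, 63.1 and 64.2% in replicate 2. It was thus lower from 5000 bp on in both lists, with the isolated class of replicate 2 level with the class before it. The intervals cover counting error only, and neighbouring clusters of 1 library are not independent. Other short clusters were also longer, with medians of 2400 against 2119.5 bp in replicate 1 and 2229 against 1918 bp in replicate 2. How often a cluster of either group overlaps a partner by chance was not measured. Its part in these differences was not tested.

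Clusters without a partner were mostly weak. The median score in replicate 1 was 0.47 for the 63 isolated clusters without a partner and 0.66 for the 213 with one. In replicate 2 the 100 without a partner had a median of 0.56 and the 179 with one had 0.68. From a score of 1 to 1.5, all 46 isolated clusters of replicate 1 and all 34 of replicate 2 had a partner, as did all 13 and all 8 above 1.5. Other short clusters from 1 to 1.5 had a partner in 100% and 99.9% of cases, so at these scores isolated and other clusters were met equally or nearly so.

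At lower scores the 2 libraries differed. At a score of up to 0.5, 53.9% of isolated and 65.6% of other short clusters of replicate 1 had a partner. In replicate 2 the order was the other way round in this class, with 61.7% of isolated and 57.1% of other clusters. From 0.5 to 0.75, the shares in replicate 2 were 45.2% of 115 isolated clusters (35.9 to 54.8%) and 65.2% of the others (63.3 to 67.0%), the widest separation of any class in either list. In replicate 1 this class held 78.4% of isolated and 83.4% of other clusters with a partner. The intervals of isolated and other clusters met in every class of replicate 1, whereas in replicate 2 they were apart from 0.5 to 0.75 and from 0.75 to 1. In the latter class 35 of 41 isolated clusters (85.4%) and 96.7% of other clusters had a partner. These intervals cover counting error only, and clusters of 1 library are not independent. No allowance was made for the number of classes compared, and the part of cluster length in these shares was not tested.

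**Figure D3:**
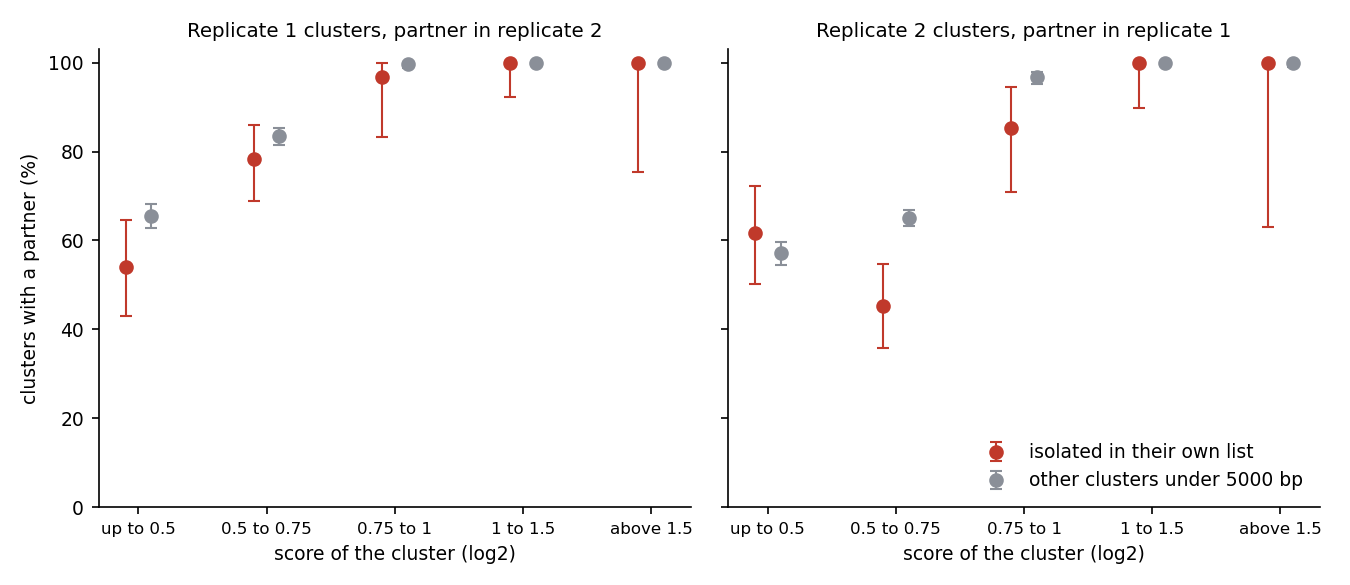
Share of short clusters with an overlapping cluster in the other replicate list (%), by score class (log2), for clusters isolated in their own list and for other short clusters, 1 panel per replicate, with exact 95% binomial intervals. Above a score of 1 every isolated cluster has a partner, and the lowest share is 45.2%, in replicate 2 from 0.5 to 0.75.

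Many islands were not isolated in each list by itself. The island's own clusters met the same limits of length and gap in both lists for 130 islands, in the replicate 1 list only for 78, in the replicate 2 list only for 49 and in neither for 51. Within 20 kb of the island, a cluster of replicate 1 that did not touch it was found for 95 islands (30.8%), a cluster of replicate 2 for 125 (40.6%) and a cluster of the replicate set for 222 (72.1%). By the rule, nearly all of these neighbours of the replicate lists were called in a single replicate. The 122 distinct ones of replicate 1 had a median score of 0.50, the 203 of replicate 2 had 0.53 and the 698 of the replicate set had 0.35. The replicate medians were close to those of other short clusters without a partner, 0.48 in replicate 1 and 0.53 in replicate 2. Of the 698, 402 overlapped no cluster of either replicate list.

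Islands with emptier surroundings had higher scores of their own, in part together with their place on the arm. No cluster of either replicate lay within 20 kb of 135 islands (43.8%, exact 95% binomial interval 38.2 to 49.6%). The interval covers counting error only, and islands that follow each other can share part of these flanks, so they are not independent. The median scores of the 135 islands were 0.74 in replicate 1 and 0.68 in replicate 2. They were 0.60 and 0.58 for the 173 islands with a cluster of at least 1 replicate nearby. For the 86 islands (27.9%) with no cluster of any list nearby, medians were 0.85 and 0.75. Lengths went the same way, with 2179 bp for those 86 islands and 2003 bp for the 173, and the part of length in this order was not tested. The centromere side of the arms, where replicate 1 scores were higher, held 24 of those 86 islands and 7 of the 173. Without it, medians in replicates 1 and 2 were 0.72 and 0.68 for the remaining 62 islands with no cluster of any list nearby, 0.66 and 0.66 for the 107 with no cluster of either replicate, and 0.59 and 0.58 for the 166 with a cluster of at least 1 replicate. The order held in both replicates, with smaller distances. This division by place was chosen after seeing the data.

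Coverage by clusters stayed low beyond the gap that the rule set. From 20 to 40 kb away from islands, clusters covered on average 10.2% of the bases in replicate 1 and 11.1% in replicate 2, against 23.2% and 25.1% around the other short stretches. From 40 to 60 kb, still farther beyond the 20 kb of the rule, they covered 14.2% in replicate 1 and 15.1% in replicate 2 around islands. Around the others they covered 21.0% and 22.6%. Over the whole span of the 5 arms, clusters covered 17.3% in replicate 1 and 18.6% in replicate 2. The flanks of islands at 40 to 60 kb were thus below this level by a few percentage points, and those of the others were above it. Neighbouring islands share part of these flanks.

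**Figure D4:**
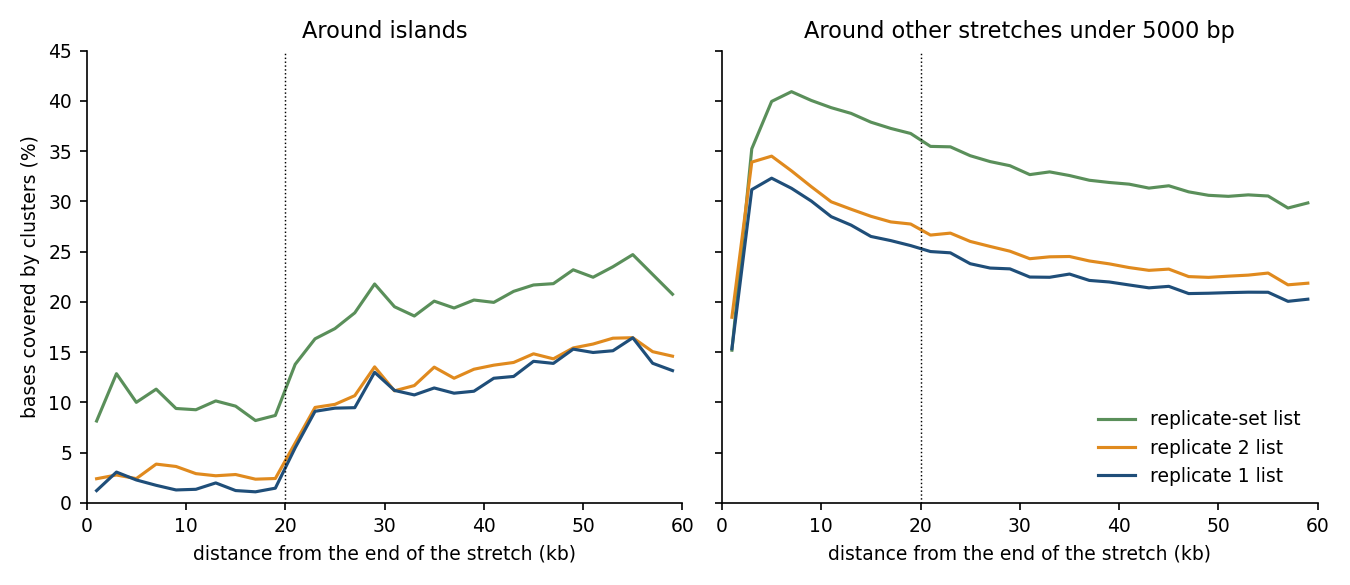
Mean share of bases covered by clusters of each of the 3 lists (%) against the distance from the end of the stretch (kb), in 2 kb steps to 60 kb, around islands and around the other short stretches, with a dotted line at 20 kb. Around islands all 3 curves are low up to the dotted line, higher beyond it, and still below those around the other stretches at 60 kb.

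Some islands followed each other in runs. An island's neighbour shares the gap between them and so already meets part of the rule, and these counts are a description. Of the islands, 144 stood alone, with a stretch of another kind as neighbour on both sides, and 164 (53.2%) belonged to 65 runs of at least 2 islands in a row. There were 43 runs of 2, 14 of 3, 5 of 4, 2 of 5 and 1 of 6. The run of 6 reached from 22471044 to 22876259 on 2L, and its islands scored 1.25, 0.38, 1.79, 1.07, 1.29 and 1.64 in replicate 1 along the arm. In replicate 2 the same islands scored 0.88, 0.22, 1.27, 0.80, 0.68 and 1.32. A single run thus held 1 of the weakest islands beside several that scored above 1 in replicate 1.

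Another long run, of 5 islands on 3L from 23141661 to 24225981, spread over 1084 kb. Its islands scored 1.84, 1.20, 1.53, 1.29 and 0.46 in replicate 1 and 1.42, 0.83, 1.02, 0.66 and 0.40 in replicate 2. The last of them, from 24224141 to 24225981, had the largest smaller gap of all islands, with 491836 bp before it and 303610 bp after it. On X, a run of 4 from 5904531 to 6121223 was even, with 1.10 to 1.44 in replicate 1 and 1.05 to 1.19 in replicate 2.

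The other islands among the 5 farthest from any neighbour lay on 3L from 18390477 to 18392247 (0.64 in replicate 1 and 0.43 in replicate 2, gaps of 221659 and 221726 bp), on 3L from 23329991 to 23333771 (1.20 and 0.83), on 2L from 17770120 to 17771582 (0.51 and 0.60) and on X from 12097448 to 12099355 (0.83 and 0.72). The smallest of their smaller gaps was 173795 bp, on X.

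Near the centromere, islands were more frequent on some arms, and on 2L and 2R their 2 replicates parted most. The last 2 Mb of listed clusters on the centromere side of each arm held 35 islands and 254 other short stretches, so that 12.1% of short stretches there were islands. Assembly gaps and bases where reads cannot be placed were not examined here, so a gap between stretches need not mean absence of H3K9ac. The share was 5.29% in the middle of the arms (249 islands) and 4.21% in the 2 Mb on the telomere side (24 islands). By arm, the share on the centromere side was 20.9% on 2L, 17.5% on 2R and 36.0% on 3L, but 4.10% on 3R and 4.76% on X. These last shares were close to those in the middle of the same arms, 4.83% on 3R and 5.59% on X.

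On the centromere side the order of islands and other short stretches differed between arms. Islands scored higher than the others in both replicates on 2L, with 1.30 in islands and 1.00 in others in replicate 1, and 0.99 in islands and 0.75 in others in replicate 2. They also scored higher on 2R, with 1.44 in islands and 1.00 in others in replicate 1, and 0.97 in islands and 0.66 in others in replicate 2. On 3L, 3R and X the islands had lower medians than the others in both replicates. On 3L these were 0.94 in islands and 1.37 in others in replicate 1, and 0.66 in islands and 1.07 in others in replicate 2. The numbers of islands were 9 on 2L, 10 on 2R, 9 on 3L, 5 on 3R and 2 on X, so medians over all 5 arms mix opposite orders.

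Replicate 1 exceeded replicate 2 on the centromere side by 0.29 ± 0.25 (SD over 35 islands) and by 0.11 ± 0.23 (SD over 254 others). In the middle of the arms the excess was 0.04 ± 0.16 in islands (n = 249) and 0.04 ± 0.20 in the others. By arm, the median excess on the centromere side was 0.32 in islands and 0.12 in others on 2L, and 0.47 in islands and 0.22 in others on 2R. It was smaller on the other arms, with 0.12 in islands and 0.02 in others on 3L, 0.01 in islands and 0.04 in others on 3R, and 0.14 in islands and 0.10 in others on X. Replicate 1 was higher in 9 of 9 islands on 2L, 10 of 10 on 2R, 7 of 9 on 3L, 3 of 5 on 3R and 2 of 2 on X. Among the others there it was higher in 29 of 34 on 2L and 39 of 47 on 2R. On the remaining arms these counts of others were 8 of 16 on 3L, 66 of 117 on 3R and 27 of 40 on X. The islands with the largest excess were on 2L from 21572560 to 21574894 (1.83 in replicate 1 and 1.02 in replicate 2), on 2R from 482297 to 484664 (1.33 and 0.64) and on 3L from 23730250 to 23732304 (1.29 and 0.66). All 3 were on the centromere side with no cluster of any list within 20 kb, which held for 24 of the 35 islands there. Without the centromere side, the 273 remaining islands had median scores of 0.63 in replicate 1 and 0.61 in replicate 2, with differences of -0.17 and -0.12 from the other short stretches outside it.

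**Figure D5:**
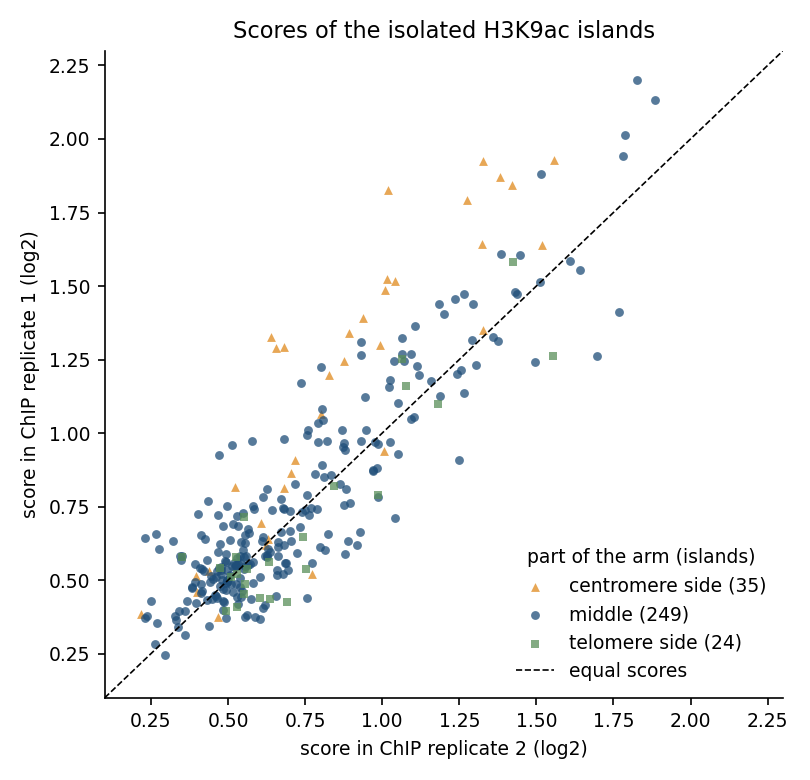
Score of each isolated island in ChIP replicate 2 (horizontal axis, log2) against ChIP replicate 1 (vertical axis, log2), 1 point per island (n = 308), with triangles for the centromere side (35), circles for the middle (249) and squares for the telomere side (24) of the arms, and a dashed line at equal scores. Most islands lie along the line, while 31 of the 35 triangles lie above it. Replicate 1 was also higher in 169 of the 254 other short stretches on the centromere side, which are not drawn.

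The scores of islands at the limits of the rule overlapped with those of stretches just beyond them. The smaller gap of the 3 islands nearest inside the gap limit was 20123, 20123 and 20165 bp, and their scores in replicates 1 and 2 were 0.58 and 0.56, 0.51 and 0.54, and 0.97 and 0.93. The 3 stretches nearest outside had gaps of 19989, 19925 and 19847 bp, and scores of 1.10 and 0.80, 1.41 and 0.97, and 0.85 and 0.81. Over wider windows the replicates gave different orders. The 33 islands within 2000 bp inside the limit had medians of 0.75 in replicate 1 and 0.66 in replicate 2, against 0.59 and 0.68 for the 51 stretches within 2000 bp outside it. Median mean score (0.76 against 0.63) and median length (2294 against 2039 bp) were higher inside, the opposite of the order over all short stretches. At the length limit, the 3 longest islands named above stood inside, and isolated stretches of 5071, 5132 and 5170 bp stood just outside. Those 3 had scores of 0.93 and 0.89, 0.86 and 0.86, and 1.35 and 1.42. In all, 17 isolated stretches were at or above 5000 bp, with a median mean score of 1.21.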

How the data were processed

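H3K9ac ChIP-seq lists of 2 ChIP libraries and of their replicate set were analysed. The submitters' processing notes name Bowtie 0.12.7, a read aligner. Positions are those of FlyBase release 5, per the file headers. Not given in the sources used here are the peak caller and its threshold, how the input libraries were used and how the replicate set was formed. The deposited score per cluster was read as a log2 value because its ties have that form. The 40 commonest scores of a list form 780 pairs, and 700 pairs in replicate 1, 768 in replicate 2 and 763 in the replicate set were apart by log2 of a whole-number ratio (denominator up to 5000, tolerance 1e-11). Under natural log or log10 no list had more than 1 such pair. The score is the authors' own value, and that of the replicate set has no SD.

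The islands and the regions named were chosen with earlier results of these data known. The 2 lists were intersected base by base, and 7 adjoining pairs of stretches were joined. The 10 short stretches that are first or last on an arm have 1 gap only and were counted with the others. Named regions were those of highest and lowest mean score, the longest and shortest, those with the largest smaller gap, those with the largest replicate difference in each direction, the highest of each arm and those nearest the limits. Medians were compared with no test. Binomial intervals are exact (Clopper-Pearson). The files give no read counts, so depth is unknown. Alternatives were other gap and length limits, other definitions of a neighbour, the top 50% of scores, arm ends left out and each list alone. Comparisons with others of unshared clusters and within length classes were chosen after seeing the data. The steps were checked on simulated lists. The reference table follows release 6, so genes, sequences and assembly gaps were not used here. Python 3.11.15, numpy 2.4.6, pandas 2.3.3 and scipy 1.17.1 were used.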

Additional observations from a re-analysis of the deposited data

How the results depend on the processing

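No paired analysis was possible because the input libraries entered no comparison and no result came from a test. The number of islands was 719 with a gap limit of 10000 bp, 124 with 40000 bp, 135 with gaps measured to any cluster of either replicate and 105 with gaps measured to clusters of the replicate set. It ran from 276 to 279 on 1 list alone. The median score of islands minus that of others moved to -0.0543 with a length limit of 3000 bp, -0.0395 with gaps to either replicate, -0.103 in the top 50% of scores, -0.187 against others with unshared clusters, and -0.0237 or, against these, -0.0345 within length classes. It turned to 0.0024 with gaps to the replicate set. On 1 list alone it ran from -0.116 to -0.0231, the smaller difference being that of replicate 2. The length difference was -106 bp (3000 bp limit), -173 bp (either replicate) and -104 bp (replicate set), and -311 to -280.5 bp on 1 list alone. The difference in shared bases, 1.64 percentage points, was 4.84 with the 3000 bp limit and turned to -1.22 in the top 50% of scores, -3.05 against others with unshared clusters and -0.65 against these within length classes. Islands minus stretches with a smaller gap under 1000 bp gave a mean score difference of -0.147, which became -0.0696 (3000 bp limit), -0.0564 (either replicate), -0.0151 (replicate set) and -0.322 (unshared clusters), and -0.119 to -0.0202 on 1 list alone. The share of islands with no cluster of either replicate within the gap limit was 49.8% (10000 bp), 81.9% (replicate set) and 62.9% (top 50%). The partner share of isolated clusters minus that of others, a mean of -10.8 percentage points over both lists, became -7.95 (40000 bp), -8.995 (3000 bp) and -12.1 (arm ends left out), and -11.6 to -9.89 on 1 list alone. The cause of these shifts was not tested. With 2 libraries and no read counts, neither depth nor differences between animals could be measured.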
